A study of Homo sapiens with 4 samples.

Results

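The BCL2 family sets whether a cell commits to death through its mitochondria, and 10 of its genes were followed in rhabdomyosarcoma cells depleted of SKP2. They were taken by gene name from the TPM (transcript levels corrected for length and scaled to a fixed library total) of all 4 libraries, 10 of 39323 genes, and each name was found once in every library. The pro-survival genes are BCL2, BCL2L1, BCL2L2 and MCL1. The 6 pro-death genes are the effector BAK1 and the 5 BH3-only genes BID, BCL2L11, BAD, BMF and PMAIP1. The cells were RD and JR1, both established human lines of fusion-negative rhabdomyosarcoma. Each line was infected with a lentivirus that expressed either shSCR, a non-targeting hairpin (genotype given as WT), or shSKP2.2, a hairpin against SKP2 (genotype given as SKP2 knockdown). SKP2 is the substrate-binding subunit of an SCF ubiquitin ligase. The groups were RD shSCR, RD shSKP2.2, JR1 shSCR and JR1 shSKP2.2, with 1 library each, so differences stand without replicates and without p-values. The shSCR libraries are called control and the shSKP2.2 libraries depleted. The paper describes puromycin selection of infected RD and JR1 cells, at a higher concentration for JR1. Depletion rested on 1 hairpin in a bulk infected culture. In bulk RNA fewer cells of a type and less RNA per cell cannot be told apart.

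Pro-survival proteins hold the effectors in check at the outer mitochondrial membrane. BH3-only proteins carry stress signals to them: they occupy the groove of the pro-survival proteins or act on the effectors directly, and the effectors then form pores that release cytochrome c. Each BH3-only protein has its own preferred partners. NOXA, the product of PMAIP1, binds mainly MCL1, BAD binds BCL2, BCL-XL (from BCL2L1) and BCL-W (from BCL2L2), and BIM (from BCL2L11) binds all of them. Much of the family is set by protein turnover, phosphorylation and cleavage, none of which RNA shows.

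The member that fell furthest in both lines was PMAIP1 and the member with the highest change was BCL2L11, and the 250 bases before their RefSeq starts are shown so that the sequence next to them can be read beside their values. Both are on the plus strand of GRCh38.p14, from RefSeq, at chr18:59899746-59899995 for PMAIP1 and chr2:111120664-111120913 for BCL2L11. Capitals mark the motif matches found.

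PMAIP1: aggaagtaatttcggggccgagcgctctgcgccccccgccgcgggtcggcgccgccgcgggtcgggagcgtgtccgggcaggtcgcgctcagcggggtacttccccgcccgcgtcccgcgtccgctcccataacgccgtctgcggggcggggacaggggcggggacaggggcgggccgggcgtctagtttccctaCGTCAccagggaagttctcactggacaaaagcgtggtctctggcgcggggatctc

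BCL2L11: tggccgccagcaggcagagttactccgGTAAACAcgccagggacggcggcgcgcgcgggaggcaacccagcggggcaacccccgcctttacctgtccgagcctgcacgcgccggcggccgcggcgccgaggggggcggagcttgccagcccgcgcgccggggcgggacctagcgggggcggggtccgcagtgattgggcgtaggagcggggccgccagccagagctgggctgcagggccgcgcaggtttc

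In PMAIP1 the capitals are the core of the cyclic AMP response element (TGACG, or CGTCA on the other strand), and in BCL2L11 a FOXO site (TGTTTAC, or GTAAACA). The same letters and the E box CAGCTG, which MYOD1 prefers, were searched on both strands of the windows of 8 members. MCL1 and BCL2L2 had no window to search. The search also covered all 35116 RefSeq windows of the same 250 bases before a start. TGACG stood in the windows of BAD, BCL2, BCL2L1, BMF and PMAIP1, 5 of 8 members, and in 21.2% of all windows. TGTTTAC stood in that of BCL2L11 alone among the members and in 2.98% of all windows. CAGCTG stood in that of BMF alone and in 14.0% of all windows. Both printed windows were rich in G and C, 72.8% for PMAIP1 and 76.8% for BCL2L11, against a median of 58% over all windows. BAD, BCL2L1, BID and BMF have several RefSeq starts, and a match in any of their windows was counted. The shares of all windows count each window on its own, so the member counts and these shares are not like measures. A match describes letters and not a bound site.

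SKP2 was at 92.8 TPM in control RD against 7.40 in depleted RD, and at 46.5 against 2.72 TPM in JR1, so the targeted transcript followed the labels. The muscle regulators MYOD1 (87.0 to 131 TPM over the libraries) and MYOG (31.6 to 107 TPM) and the muscle filament gene DES (36.0 to 51.3 TPM) were present in all libraries, while MYF5 was listed at 0 in all of them. MYOG, which drives muscle differentiation, was higher in the depleted libraries (58.4 against 31.6 TPM in RD, 107 against 54.0 in JR1) and PAX7, a muscle stem cell factor, lower (3.36 against 10.75 and 1.16 against 4.84 TPM). Of the 8 muscle markers, 6 were higher and 1 lower in depleted RD, and 4 higher and 3 lower in depleted JR1, where DES was among the lower (36.0 against 51.3 TPM). The 8 summed to 369 TPM in control RD, 519 in depleted RD, 515 in control JR1 and 727 in depleted JR1. The part of these markers in the changes of the members was not tested. The 8 markers of leukocytes, endothelium, epithelium and hepatocytes did not exceed 0.16 TPM. The depth of a library cannot be read from TPM and is unknown, so no counting error can be given. Short structural RNAs took 58.6% of the TPM in control RD and 69.0% in depleted RD, and 66.5% and 72.1% in JR1. Beside that, the median log2 change of the 12985 genes tested (those whose mean reached 1 TPM) was -0.27 for RD and -0.21 for JR1. Each change below is, on the log2 scale, the ratio of TPM + 1 between the depleted and the control library of a line. It is also given relative to that median where the difference matters. Gene coordinates are those of the whole locus on GRCh38, as the deposited tables give them.

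All 10 members passed the minimum of 1 TPM. In RD, PMAIP1 fell by at least 2-fold and no member rose that far. The background was 7.37% of the genes tested for falls and 1.08% for rises. In JR1, PMAIP1, BID and MCL1 fell and BCL2L11 rose by at least 2-fold, against 9.05% and 1.78% of the genes tested. The members had a median change of -0.09 (RD) and -0.35 (JR1). Relative to the median of all genes tested it was 0.18 and -0.13. The middle of the members was thus close to that of other genes. Their spread was not compared with that of the genes tested. Lower values in shSKP2.2 were found for 5 members in RD and 7 in JR1, where 75.0% and 68.9% of the genes tested were lower. In both lines together, 5 members were lower and 3 higher, and 61.1% and 17.0% of the genes tested did the same.

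**Figure D1:**
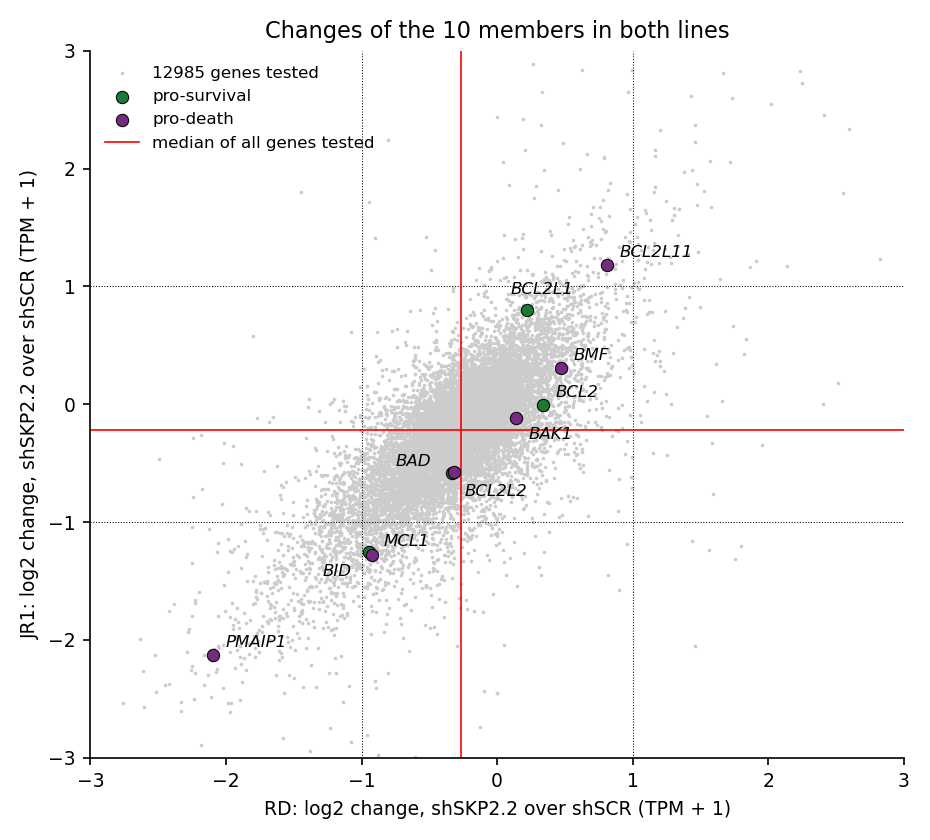
Log2 change of TPM + 1 in shSKP2.2 over shSCR in RD (horizontal axis) and JR1 (vertical axis), with the 12985 genes tested in grey, the pro-survival members in green and the pro-death members in purple. Red lines mark the medians of all genes tested (-0.27 in RD, -0.21 in JR1), dotted lines mark 2-fold, and 78 genes lie beyond the axes. PMAIP1 lies lowest and BCL2L11 highest of the members in both lines, with MCL1 beside BID and BAD beside BCL2L2.

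Among the pro-survival genes, MCL1 was lower and BCL2L1 higher in shSKP2.2 in both lines. MCL1 (chr1:150574558-150579610) encodes a short-lived protein on which many tumor cells depend. Its level was 128 TPM in control RD, 65.85 in depleted RD, 117 in control JR1 and 48.4 in depleted JR1. The control libraries stood close together and both depleted libraries lay far below them, with a log2 change of -0.94 in RD, just short of 2-fold, and -1.25 in JR1. Against the median of the genes tested the changes were -0.68 and -1.04, and 8.66% and 4.90% of the genes tested had a change as low or lower.

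BCL2L1 (chr20:31664452-31723963) encodes BCL-XL and, through another splice site, the pro-death isoform BCL-XS. It stood at 54.1 TPM in control RD, 63.3 in depleted RD, 47.1 in control JR1 and 82.5 in depleted JR1. The highest library was depleted JR1, although control JR1 was the lowest. It changed by 0.22 on the log2 scale in RD and 0.80 in JR1. With the median of the genes tested taken off, the JR1 value was 1.01. TPM are summed over isoforms, so BCL-XL and BCL-XS, and likewise the isoforms of MCL1 and BCL2L11, cannot be told apart here. A long noncoding RNA inside the locus, ABALON, was listed at 8.08, 9.28, 9.22 and 9.61 TPM in the same order of libraries, and the antisense gene BCL2L1-AS1 at no more than 0.5 TPM. Whether the counting used the strand of the reads is not given in the sources used here, so reads shared with these genes are uncertain.

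BCL2L2 (chr14:23306833-23311751), the gene of BCL-W, had 13.8 TPM in control RD, 10.8 in depleted RD, 13.6 in control JR1 and 8.73 in depleted JR1. Its log2 change of -0.33 in RD lay near the median of all genes tested (-0.06 relative to it), and that in JR1 was -0.59. The readthrough gene BCL2L2-PABPN1, which shares its exons, was listed at 3.55, 3.66, 4.05 and 2.38 TPM.

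BCL2 (chr18:63123346-63320280), the founding member of the family, was the lowest of the 10 in every library. It stood at 2.81 TPM in control RD, 3.82 in depleted RD, 1.52 in control JR1 and 1.51 in depleted JR1. Both RD libraries lay above both JR1 libraries. On the log2 scale it changed by 0.34 in RD and -0.01 in JR1. The added 1 TPM understates a change at so low a level.

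**Figure D2:**
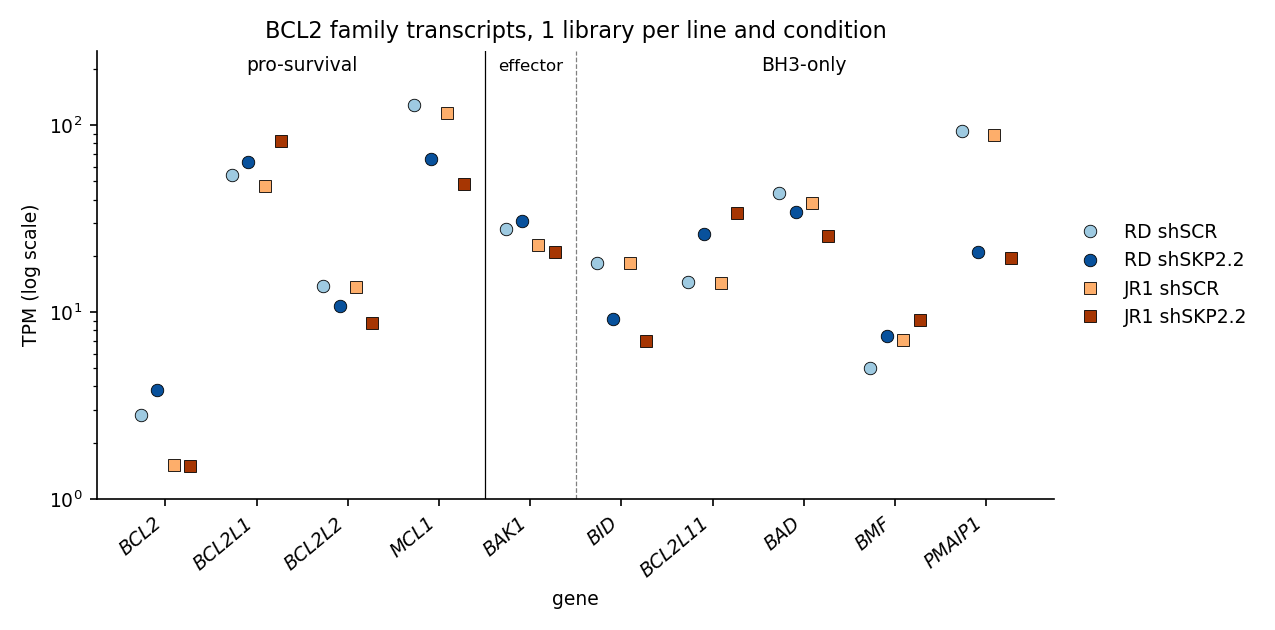
TPM on a log scale of each member in the 4 libraries, 1 point per library, with RD as circles and JR1 as squares and shSKP2.2 in the darker shade. PMAIP1 drops from 92.7 and 88.55 TPM to 20.9 and 19.5, BCL2L11 climbs from 14.5 and 14.3 TPM to 26.1 and 33.7, and BCL2 is the lowest member throughout.

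The effector BAK1 (chr6:33572552-33580296), which forms the pore in the outer membrane, was near its control level in both lines. It was at 27.7 TPM in control RD, 30.6 in depleted RD, 22.9 in control JR1 and 21.0 in depleted JR1, log2 changes of 0.14 and -0.12. With the median of the genes tested taken off, the changes were 0.41 and 0.10.

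The 5 BH3-only genes moved apart. PMAIP1 fell in both lines, BID was lower in both, BCL2L11 and BMF were higher in both, and BAD stayed near the median of all genes tested in RD and somewhat below it in JR1. Over the 5 the median change was -0.32 (RD) and -0.58 (JR1).

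PMAIP1 (chr18:59899996-59904305) encodes NOXA, a small BH3-only protein that drives MCL1 to degradation and is a known target of interferon signalling. Its level was 92.7 TPM in control RD, 20.9 in depleted RD, 88.55 in control JR1 and 19.5 in depleted JR1. The depleted libraries held 22.6% and 22.0% of the TPM of their controls, and the deposited values of RD and JR1 nearly coincided in each condition. On the log2 scale RD changed by -2.10 and JR1 by -2.13 (-1.83 and -1.91 relative to the median), and 0.508% and 0.778% of the genes tested had a change as low or lower. A list of 12 interferon-stimulated genes moved the same way and further. All 10 that passed the minimum were lower in both lines, 8 fell by at least 2-fold in RD (ISG15, IFIT1, IFIT2, IFIT3, OAS1, OASL, RSAD2 and DDX58) and 10 in JR1, where 7.37% and 9.05% of all genes tested fell. Their median change was -2.93 in RD and -3.15 in JR1. OASL, an antiviral protein, was lowest at -5.75 and -5.14. The list was chosen with the fall of such genes in these libraries already known, and its part in the fall of PMAIP1 was not tested.

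BCL2L11 (chr2:111120914-111168445) encodes BIM, which binds every pro-survival member and can act on the effectors. It had 14.5 TPM in control RD, 26.1 in depleted RD, 14.3 in control JR1 and 33.7 in depleted JR1. As deposited, the control libraries were nearly equal and both depleted libraries were higher, 1.75-fold in RD and 2.27-fold in JR1 on the TPM + 1 scale. RD changed by 0.81 and JR1 by 1.18 on the log2 scale, and 98.3% and 98.8% of the genes tested had a change as low or lower. Relative to the median it was 1.08 and 1.40. FOXO3 and FOXO1, transcription factors known to induce BCL2L11, are described with their list further on.

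BID (chr22:17734138-17774665) links the death receptors to the mitochondria once caspase 8 has cut its protein. RD had 18.35 TPM as control and 9.21 when depleted, and JR1 had 18.3 and 6.97. As deposited, the controls were nearly equal and both depleted libraries were lower, by log2 changes of -0.92 and -1.28. These lie beside those of MCL1 in both lines.

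BAD (chr11:64269828-64284704), held by 14-3-3 proteins while growth factor signalling phosphorylates it, had 43.2 TPM in control RD, 34.5 in depleted RD, 38.5 in control JR1 and 25.5 in depleted JR1. Its log2 changes of -0.32 and -0.58 were close to those of BCL2L2. GPR137, a neighbour that overlaps BAD, had between 11.0 and 17.3 TPM. BMF (chr15:40087890-40108879), whose protein is tethered to the motor complex of actin filaments, had 5.05 TPM in control RD, 7.41 in depleted RD, 7.13 in control JR1 and 9.06 in depleted JR1. It changed by 0.48 and 0.31 on the log2 scale, and 95.3% and 87.8% of the genes tested had a change as low or lower.

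How many members passed 2-fold depended on the scale of the TPM. Relative to the median of all genes tested, BCL2L11 rose and PMAIP1 fell in RD, where 2.09% of the genes rose and 3.53% fell. In JR1, BCL2L1 and BCL2L11 rose and MCL1, BID and PMAIP1 fell, where 2.99% rose and 5.47% fell. Without the short structural RNA genes, and with the TPM rescaled, 15227 genes were tested and the same members passed 2-fold. The background was then 4.45% for rises and 3.46% for falls in RD, and 4.91% and 7.51% in JR1. On that scale the genes tested had medians of 0.12 (RD) and 0.01 (JR1). With a limit of 1.5-fold in either direction, 4 members passed in RD (26.4% of the genes tested) and 6 in JR1 (28.7%). BCL2L11 was joined in RD by MCL1, BID and PMAIP1 and in JR1 also by BCL2L1 and BCL2L2. On each of these 3 scales PMAIP1 was the member with the largest change in both lines.

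**Figure D3:**
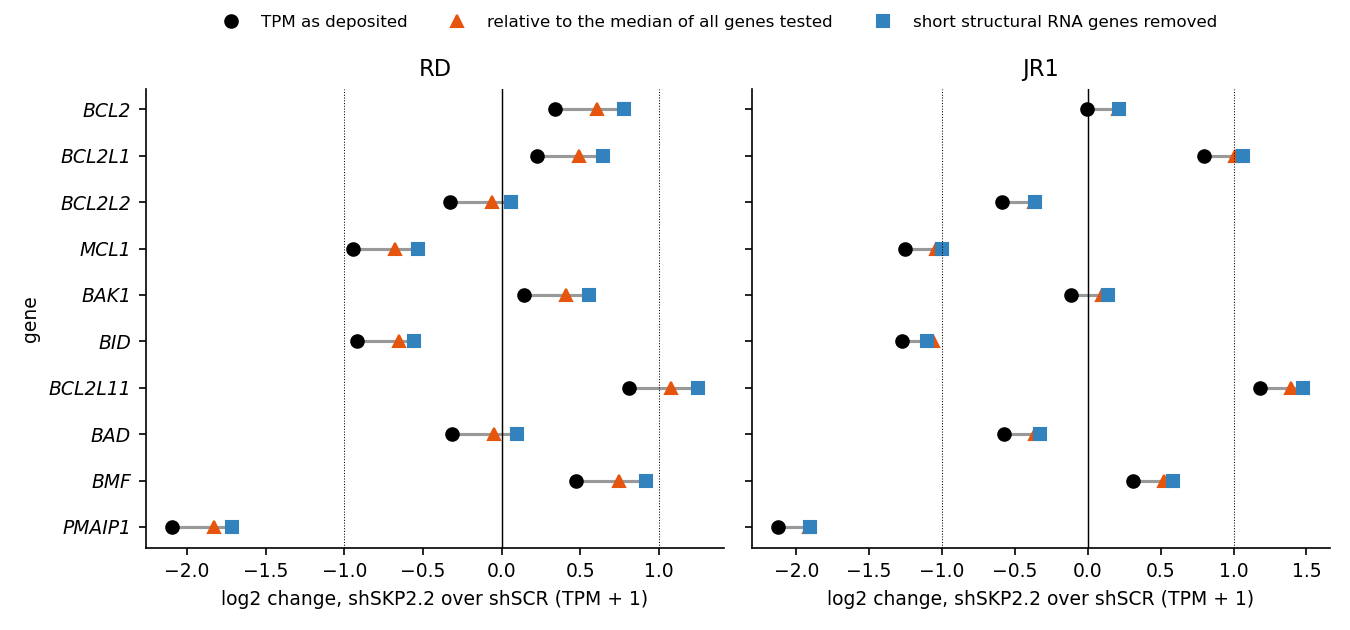
Log2 change of TPM + 1 in shSKP2.2 over shSCR for each member in RD (left) and JR1 (right), with TPM as deposited (black circles), relative to the median of all genes tested (orange triangles) and after removal of short structural RNA genes (blue squares). Dotted lines mark 2-fold. Both rescalings move every member to the right. BAD and BCL2L2 cross 0 in RD after the removal, and BCL2 and BAK1 in JR1 under both.

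Within a library the members can be compared per length and free of the TPM total. The 10 members together had 399.9 TPM in control RD and 273 in depleted RD, and 369 and 257 in JR1. The pro-survival genes summed to 198 TPM in control RD, 144 in depleted RD, 179 in control JR1 and 141 in depleted JR1. The pro-death genes summed to 201 TPM in control RD, 129 in depleted RD, 189.7 in control JR1 and 116 in depleted JR1. Over these 10 genes the controls thus held nearly equal amounts of both kinds of transcript. With the other BCL2 family genes of known side added, BAX among them, pro-survival over pro-death TPM was 0.701 in both controls. With the TPM as deposited both sums of the 10 genes were lower in the depleted libraries. Without the short structural RNA genes the pro-survival sum was at 0.969 of its control in RD and 0.948 in JR1, and the pro-death sum at 0.855 and 0.733. All 10 members made up 0.0966% of the TPM outside those genes in control RD and 0.0880% in depleted RD, and 0.110% and 0.0921% in JR1. The ratio of pro-survival to pro-death TPM was 0.985 in control RD and 1.12 in depleted RD, and 0.943 in control JR1 and 1.22 in depleted JR1. It was higher after depletion by 1.13-fold in RD and 1.29-fold in JR1. The ratio weighs abundant genes most: without MCL1 it changed by 0.79 (RD) and 1.29 (JR1) on the log2 scale, against 0.18 and 0.37 with it. Its direction rested on 2 members. Without PMAIP1 the ratio was lower after depletion, 1.82 in control and 1.33 in depleted RD and 1.77 and 1.47 in JR1, log2 changes of -0.45 and -0.27. Without BCL2L1 it was lower as well, by log2 changes of -0.20 and -0.46, and leaving out any of the other 8 members kept it higher in both lines. With each member weighed the same, by geometric means, the log2 change was 0.14 and 0.17.

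The makeup of both sums shifted as well. MCL1 was 64.3% of the pro-survival TPM in control RD and 65.2% in control JR1, and 45.8% and 34.3% after depletion. BCL2L1 went from 27.3% to 44.0% in RD and from 26.3% to 58.4% in JR1. BCL2L2 stayed between 6.18% and 7.60%, and BCL2 did not exceed 2.66%. Among the pro-death genes PMAIP1 was 46.0% of the TPM in control RD and 46.7% in control JR1, and 16.3% and 16.8% after depletion. BCL2L11 went from 7.19% to 20.3% in RD and from 7.54% to 29.1% in JR1. BAD, BAK1 and BMF had larger shares after depletion in both lines, and BID a smaller one.

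**Figure D4:**
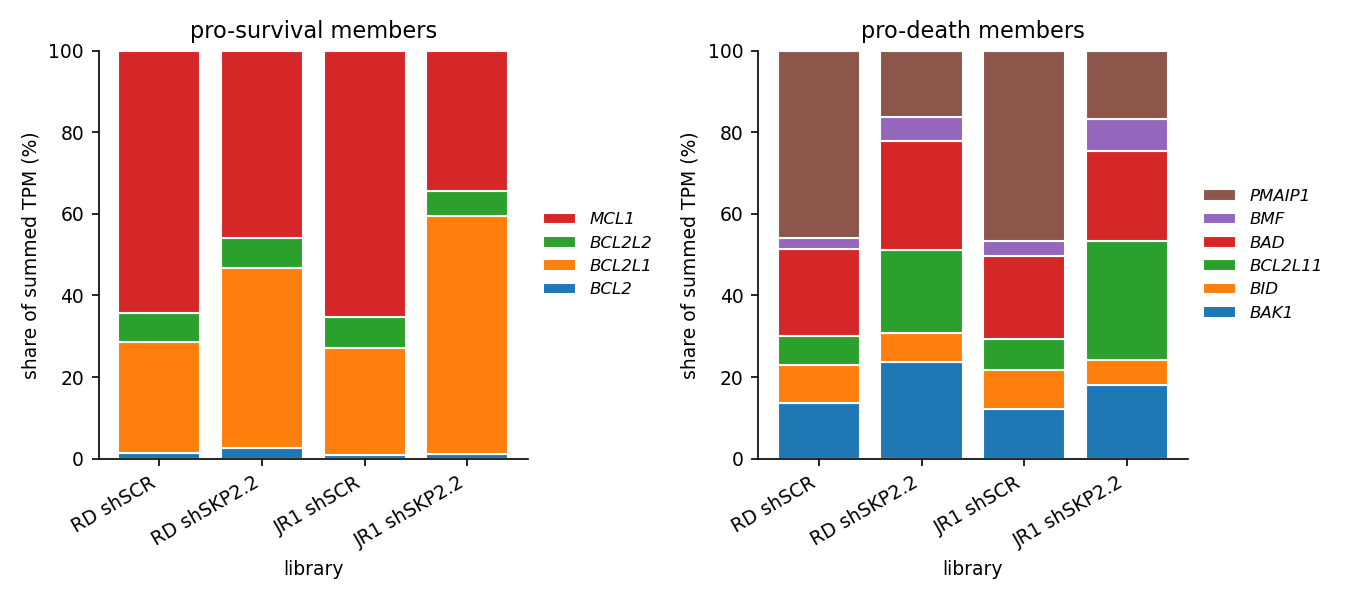
Share of each pro-survival member in the summed pro-survival TPM (left) and of each pro-death member in the summed pro-death TPM (right), in percent, with 1 stacked bar for each library. MCL1 leads the pro-survival TPM in both controls (64.3% and 65.2%) and BCL2L1 leads in depleted JR1 (58.4%), while PMAIP1 shrinks from 46.0% and 46.7% of the pro-death TPM to 16.3% and 16.8%.

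The order of the levels changed with it. Both controls had the same order from the highest to the lowest, MCL1, PMAIP1, BCL2L1, BAD, BAK1, BID, BCL2L11, BCL2L2, BMF and BCL2. In depleted RD the order was MCL1, BCL2L1, BAD, BAK1, BCL2L11, PMAIP1, BCL2L2, BID, BMF and BCL2. In depleted JR1 it was BCL2L1, MCL1, BCL2L11, BAD, BAK1, PMAIP1, BMF, BCL2L2, BID and BCL2. With 1 library per group there is no spread by which neighbours in these orders could be told apart, and MCL1 and BCL2L1 in depleted RD (65.85 and 63.3 TPM) or BCL2L11 and BCL2L2 in the controls stood close.

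Ratios of TPM were taken for 7 pairs of a pro-survival gene and a pro-death gene whose proteins are known to bind. MCL1 over PMAIP1 was 1.38 in control RD, 3.15 in depleted RD, 1.32 in control JR1 and 2.48 in depleted JR1. It was higher after depletion in both lines, as PMAIP1 changed by more than MCL1. MCL1 over BCL2L11 went the opposite way, at 8.82, 2.52, 8.16 and 1.44 in the same order of libraries. MCL1 over BAK1 was 4.61, 2.15, 5.10 and 2.30. So MCL1 transcripts lost ground to those of BIM and BAK and gained on those of NOXA. BCL2L1 over BAD was 1.25 in control RD, 1.84 in depleted RD, 1.22 in control JR1 and 3.24 in depleted JR1. BCL2L1 over BAK1 was nearly level in RD (1.95 and 2.07) and higher after depletion in JR1 (2.06 and 3.92). BCL2 over BCL2L11 and BCL2L2 over BMF were lower after depletion in both lines. On the scale of TPM + 1 their log2 changes were -0.47 and -1.19 for the former and -0.81 and -0.89 for the latter.

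The lines were also set side by side within a condition. In the controls no member differed by 2-fold between RD and JR1, where 6.50% of the genes tested were higher and 3.45% lower in RD. BCL2 was higher in RD by 0.60 on the log2 scale and BMF lower by -0.43, and the other 8 differed by no more than 0.26. Without the short structural RNA genes, RD controls differed from JR1 controls by -0.30 for BID, -0.28 for BCL2L11 and -0.24 for PMAIP1. With shSKP2.2 again no member differed by 2-fold, where 5.39% were higher and 2.70% lower in RD. BCL2 came closest at 0.94, and passed 2-fold with 0.1 TPM added in place of 1 (9.18% of the genes tested) or without the short structural RNA genes (6.28%). With the TPM as deposited, BCL2 was the one member that differed by 1.5-fold in either condition. The background was 27.4% of the genes tested in the controls and 22.0% with shSKP2.2. In the controls BCL2 was at 0.36 after centring on the median and 0.49 without the short structural RNA genes, and BMF at -0.66 and -0.76. On those scales BMF passed 1.5-fold in the controls and BCL2 did not. BCL2L1 and BCL2L11 were lower in depleted RD than in depleted JR1, by -0.38 and -0.36. The change after depletion was larger in JR1 than in RD by 0.57 for BCL2L1 and by 0.37 for BCL2L11, and for PMAIP1 the lines differed by -0.03. No difference between the lines was tested, since each line had 1 library per condition.

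Of 15 other genes listed with the BCL2 family, 9 passed the minimum and none of them changed by 2-fold in either line with the TPM as deposited. Their median change was -0.29 in RD and -0.28 in JR1, close to that of all genes tested. BAX, the partner effector of BAK1, was at 54.1 TPM in control RD, 38.1 in depleted RD, 43.1 in control JR1 and 34.3 in depleted JR1. The effector BOK had log2 changes of -0.43 and -0.60, and BCL2L12, lowest of them in RD, had -0.51 and -0.43. BBC3, which encodes the BH3-only protein PUMA, was the highest, with 3.68 and 5.76 TPM in RD and 2.93 and 5.68 TPM in JR1, log2 changes of 0.53 and 0.77. Without the short structural RNA genes it was the one gene of this list past 2-fold, in JR1, with 0.99 and 1.13. On that scale 4.91% of the genes tested rose in JR1. BCL2L13, BNIP3, BNIP3L, BECN1 and MOAP1 lay between -0.47 and 0.47 over both lines. BIK, HRK, BCL2A1, BCL2L10, BCL2L14 and BCL2L15 did not pass the minimum, and none of them exceeded 1.10 TPM in a library.

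Downstream of the pores, 10 genes of the mitochondrial pore and apoptosome all passed the minimum, and with the TPM as deposited VDAC1 alone changed by 2-fold. Their median was -0.31 for RD and -0.26 for JR1. Of all genes tested, 7.37% fell in RD and 9.05% in JR1. VDAC1, a channel of the outer membrane, fell in both lines, to 28.9 TPM from 88.2 in RD and to 32.6 TPM from 111 in JR1. Its relatives VDAC2, which holds BAK at the membrane, and VDAC3 had log2 changes of 0.04 and -0.39 in RD and 0.15 and -0.26 in JR1. CYCS (cytochrome c) had 0.15 and 0.03, and APAF1, the scaffold of the apoptosome, -0.34 and -0.27. The mitochondrial nuclease ENDOG was highest in RD at 0.63, and DIABLO, which relieves caspases of their inhibitors, in JR1 at 0.23. Without the short structural RNA genes ENDOG passed 2-fold in RD (1.06), where 4.45% of the genes tested rose.

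None of the 7 caspase and nuclease genes that passed the minimum, of 8 listed, changed by 2-fold, and their medians were 0.12 (RD) and -0.21 (JR1). CASP2 was the highest in both lines (0.33 and 0.39), and the lowest were CASP6 at -0.37 in RD and the nuclease inhibitor DFFA at -0.54 in JR1. Of 7 inhibitor of apoptosis genes, 4 passed the minimum and none changed by 2-fold, with medians of -0.17 and -0.28. BIRC5 (survivin, which also serves in mitosis) was the lowest at -0.71 and -0.81 and BIRC6 the highest at 0.16 and 0.26. Of 13 death receptor and adaptor genes, 8 passed the minimum, none changed by 2-fold in RD, and TNFRSF21 and TRADD fell in JR1, by 1.40 and 1.09, against the 9.05% of all genes tested given above. After centring on the median, TNFRSF21 alone fell by 2-fold there. The medians of the 8 were -0.54 and -0.48. The decoy receptor TNFRSF10D was the highest in both lines at 0.64 and 0.67, and without the short structural RNA genes it rose by 2-fold in both, by 1.12 and 1.21. On that scale 4.45% of the genes tested rose in RD and 4.91% in JR1. The deposited level of TNFRSF10D in control JR1 was 0.66 TPM, which is near the floor. FADD, the adaptor that brings caspase 8 to the receptors, was the lowest in RD at -0.89.

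Of 14 genes whose products sequester family members or turn them over, 13 passed the minimum, with medians of -0.29 and -0.08. YWHAE, a 14-3-3 protein, was the lowest in both lines, falling by at least 2-fold in RD (-1.08) but not in JR1 (-0.87), and in neither relative to the median. In RD 7.37% of all genes tested fell. The highest were the 14-3-3 gene YWHAG in RD at 0.28 and FBXW7, a ubiquitin ligase subunit that targets MCL1, in JR1 at 0.43. Of 10 transcription factors known to act on BH3-only genes, 8 passed the minimum. FOXO1 was the highest in both lines and rose by 2-fold in JR1, where 1.78% of all genes tested rose. It had 3.07 and 4.52 TPM in RD and 0.58 and 2.56 TPM in JR1, log2 changes of 0.44 and 1.17. The call in JR1 thus rested on a control value under 1 TPM. FOXO3 had 0.09 and 0.42. The lowest were E2F1 in RD at -0.89 and IRF3, which relays viral RNA sensing, in JR1 at -0.79. The median of these 8 was -0.25 in RD and -0.20 in JR1, near the median of all genes tested.

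**Figure D5:**
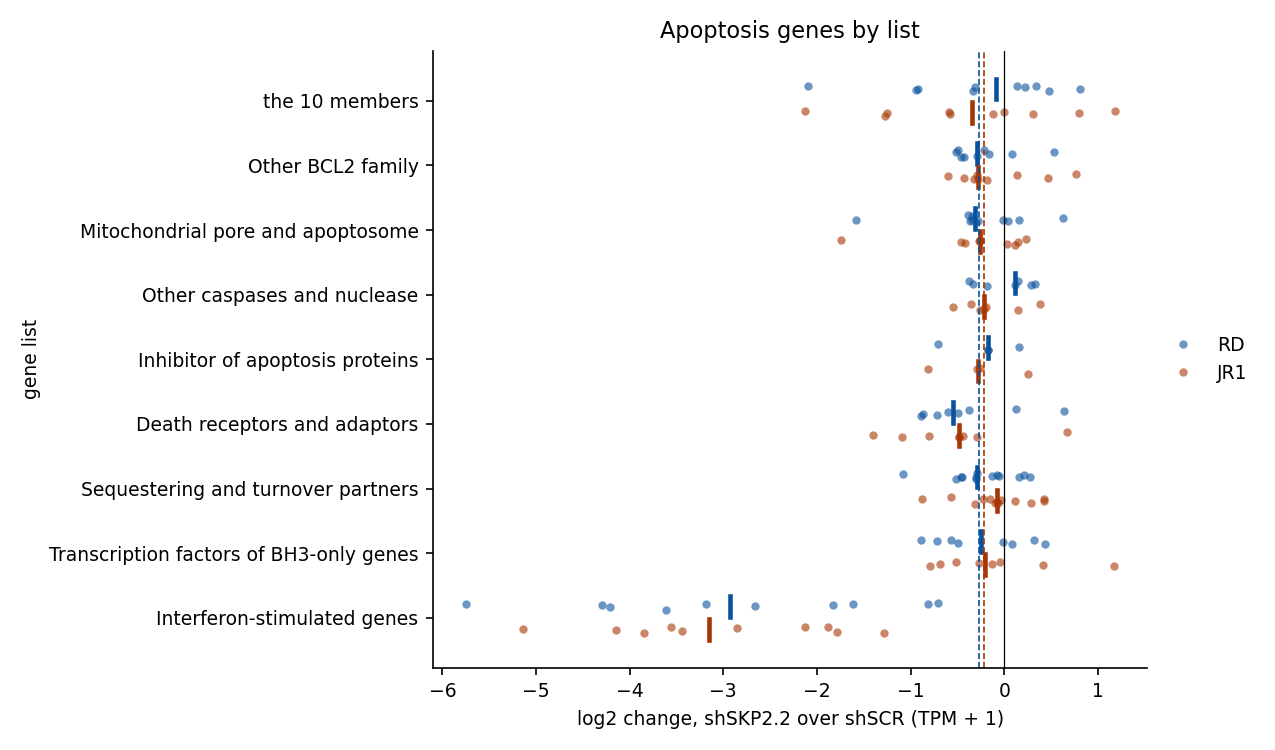
Log2 change of TPM + 1 in shSKP2.2 over shSCR for every gene that passed the minimum in each list, RD in blue and JR1 in orange, with a short bar at each list's median and dashed lines at the medians of all genes tested (-0.27 in RD, -0.21 in JR1). The 10 members span from -2.13 to 1.18, wider than the other BCL2 family genes, and the interferon-stimulated genes lie lowest with medians of -2.93 and -3.15.

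Distances between log2(TPM + 1) values, each gene centred on its own mean, compared patterns over the 4 libraries and not levels. The 3 genes tested that lay nearest to PMAIP1 were found in this way. They were CCNG1, cyclin G1, at a distance of 0.14, ATP5MC1, a subunit of the mitochondrial ATP synthase, at 0.16, and RP2, a GTPase-activating protein, at 0.16. CCNG1 had 26.2, 5.94, 23.9 and 4.80 TPM in the order control RD, depleted RD, control JR1 and depleted JR1. ATP5MC1 had 43.8, 10.7, 42.4 and 10.1 TPM and RP2 had 7.09, 1.17, 6.69 and 0.86. As for PMAIP1, the values of RD and JR1 stood close in each condition, which follows from how these genes were picked.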

How the data were processed

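The 4 RNA-seq libraries, 1 for each line (RD, JR1) and hairpin (shSCR, shSKP2.2), were analysed, grouped by the titles and characteristics of the labels. The authors selected poly-A RNA, made directional libraries, used STAR 2.7.9a for alignment to GRCh38 and RSEM 1.3.2 for expression (versions per the submitters' processing notes). They deposited TPM with 2 decimals, 1 value per gene and library, which were used as deposited. TPM keep no depth, so the counting error behind a value is unknown.

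Changes were log2 ratios of TPM + 1 between libraries of a line, or of RD over JR1 within a condition. A gene was tested if its mean over the libraries reached 1 TPM, and "rose" and "fell" mean at least 2-fold. No test was run. The genes named were the 10 members, SKP2, the other BCL2 family genes, genes overlapping a member, the highest and lowest gene of each list and those past 2-fold in both lines, the 3 genes nearest to PMAIP1, and cell type markers. A gene of the interferon-stimulated list that this rule names is not reported here. FOXO3, CYCS, APAF1, VDAC2, VDAC3 and TRADD, from the same lists, were chosen after their values were seen. The members and lists were chosen with earlier results of these data known. RIGI was matched as DDX58 by its RefSeq synonym.

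The alternatives were 0.1 TPM added, centring on the median of the genes tested, removal of 1059 short structural RNA genes by symbol with the rest rescaled to the same total, no minimum, a minimum of 5 TPM, a limit of 1.5-fold, and other forms of the ratio, of which those without PMAIP1 and without BCL2L1 were added after seeing the data. The code was tested on simulated data. Promoter windows came from RefSeq (GRCh38.p14), gene coordinates from the deposited tables. Scripts ran in Python 3.11.15 (numpy 2.4.6, pandas 2.3.3, matplotlib 3.10.9). The ChIP-seq, protein and animal data of the study were not analysed here.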

Additional observations from a re-analysis of the deposited data

Results flagged for a closer look

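With the TPM as deposited, BCL2 and BAK1 were higher after SKP2 depletion in RD, and their change in JR1 had the opposite sign. For BCL2 RD changed by 0.34 and JR1 by -0.01 on the log2 scale, a difference of 0.345. In JR1 BCL2 stood at 1.52 and 1.51 TPM, apart by the last deposited decimal, which is no movement in either direction. For BAK1 the changes were 0.14 and -0.12, a difference of 0.2558. Relative to the median of all genes tested both lines were higher, with 0.61 and 0.21 for BCL2 and 0.41 and 0.10 for BAK1. Without the short structural RNA genes they were 0.78 and 0.21 for BCL2 and 0.56 and 0.14 for BAK1. The opposite sign of BAK1 thus holds on the deposited scale only. The difference between the lines was not tested, since there was 1 library per line and condition.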

How the results depend on the processing

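With 1 library per group, every value rests on single libraries, the depth is unknown, and values under a few TPM are the least certain. Each change compares a depleted library with the control of its own line. A fit over the 4 libraries with the line as a block, which would take RD and JR1 as replicates, was not run. No alternative reversed the call of a member that passed 2-fold as reported. Smaller changes could not count as reversed, and some of them crossed 0, such as BAD and BCL2L2 in RD after removal of short structural RNA genes. The count of members past 2-fold in RD, 1 as reported, was 2 after centring on the median and after removal of short structural RNA genes, and 4 at 1.5-fold. In JR1 it was between 4 and 6. Between the lines it was 0 as reported, 1 at 1.5-fold in the controls, and with shSKP2.2 1 with 0.1 TPM added, after the removal and at 1.5-fold. A minimum of 5 TPM left out BCL2, which stayed under it, and changed no count. The members' median change in RD, -0.09 as reported, was -0.0899 with 0.1 TPM added, 0.1814 after centring and 0.3254 after the removal. In JR1, -0.35 became -0.3574, -0.1326 and -0.0935 in that order. The median difference of RD over JR1 in the controls, 0.10, became 0.0976, -0.13 and -0.21, and with shSKP2.2, 0.32 became 0.35, 0.14 and 0.20. Centring moves all genes by the same amount by construction, and the cause of the other shifts was not tested.

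The ratio of pro-survival to pro-death TPM, in the order RD shSCR, RD shSKP2.2, JR1 shSCR and JR1 shSKP2.2, was 1.03, 1.13, 0.881 and 0.993 by geometric means. It was 0.701, 0.756, 0.701 and 0.840 with the other BCL2 family genes of known side added. Without MCL1 it was 0.351, 0.605, 0.328 and 0.801. Under these forms its log2 change kept its direction, at 0.14, 0.11 and 0.79 for RD and 0.17, 0.26 and 1.29 for JR1. In forms chosen after seeing the data it turned. Without PMAIP1 the ratio was 1.82, 1.33, 1.77 and 1.47, with changes of -0.45 and -0.27, and without BCL2L1 it was 0.716, 0.625, 0.695 and 0.507, with changes of -0.20 and -0.46.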
